A study of Mus musculus with 5 samples.

Results

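Footprint counts of 2 early libraries, taken 5 and 10 min after homoharringtonine (HHT) was added to mouse brain slices, were compared with those of 2 late libraries, taken at 30 and 60 min. These are 4 of the 5 libraries of the series, and the library at 0 min was not used. The sides were set by time on HHT alone, and the length of each coding sequence (CDS) was then taken out of the comparison. Of 10329 genes in the count table, 8631 had a mean of at least 10 counts over the 4 libraries and were tested.

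All 4 libraries come from wild-type C57BL/6N males aged 28 to 35 days. Hippocampal-cortical slices, cut at 400 µm, were rested for 3 to 4 h, held in 20 µM HHT for the stated time and frozen, and cycloheximide was present in the lysis buffer. The vehicle was 0.05% DMSO, and vehicle-only slices at 5 to 60 min were not analysed here. Time on HHT, time on vehicle and further time after slicing therefore cannot be told apart. Each library is 1 pool of 10 slices from 2 to 3 mice, so no time has a replicate. The 2 libraries of a side are different times, and the spread within a side holds both the scatter between pools and any change between its 2 times. In time order the libraries held 2787749, 2022152, 1504748 and 1346175 counts, and the median count per gene was 64, 47, 42 and 38. Markers of neurons and glia were present at all 4 times. Camk2a, a kinase subunit of excitatory neurons, had 6276, 5105, 5364 and 5199 counts in time order, and Slc1a2, a glutamate transporter of astrocytes, had 8275, 5900, 4874 and 4259.

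HHT binds the ribosome and stops it in its first steps after initiation, while ribosomes already further along the mRNA go on translating and leave at the stop codon. Footprints in the body of a CDS are therefore lost from its start onward, and a long CDS keeps moving ribosomes for longer than a short one. Footprints still present after that time come from ribosomes that have not left. In neurons, stalled polyribosomes are known from RNA granules, and FMRP, whose loss causes fragile X syndrome, is known to bind mRNAs that carry stopped ribosomes.

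Short coding sequences made up more of the footprints at 30 and 60 min, and long ones less. The log2 folds here are late over early, from counts scaled by TMM, so they are relative to other mRNAs. Before any adjustment for length, the median log2 fold was 0.48 over the 1196 genes with a CDS under 1000 nt and 0.34 over the 2232 genes from 1000 nt to under 1500 nt. It was -0.20 over the 1885 genes from 2000 nt to under 3000 nt and -0.84 over the 524 genes from 4000 nt to under 6000 nt. The lowest median was that of the 181 genes from 6000 nt to under 8000 nt (-0.99), and the 133 genes of 8000 nt or more had a median of -0.70. Across the 8631 genes Spearman's rank correlation between this fold and CDS length was -0.69. These genes share the same 4 libraries and are not independent replicates, so the value is a description. Under this fit 485 genes were called higher (5.62% of those tested) and 1129 lower (13.1%) by edgeR's quasi-likelihood test at a Benjamini-Hochberg adjusted p under 0.05.

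Each library had its own relation to length. At 5 min the fitted trend was lowest in the shortest class (-0.36 log2 units from the gene mean) and reached 0.33 in the class from 3000 nt to under 4000 nt. At 10 min it was still near its low point from 1500 nt to under 2000 nt (-0.14) and reached 0.68 from 6000 nt to under 8000 nt and 0.69 above that. The 30 and 60 min trends lay close together in classes under 4000 nt, both falling with length (0.20 and 0.25 in the shortest class, -0.26 and -0.27 from 3000 nt to under 4000 nt). In the longest class they parted, at -0.30 and -0.53. The early side is thus made of 2 libraries with different length curves, and each library's own curve was removed before the sides were compared.

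**Figure D1:**
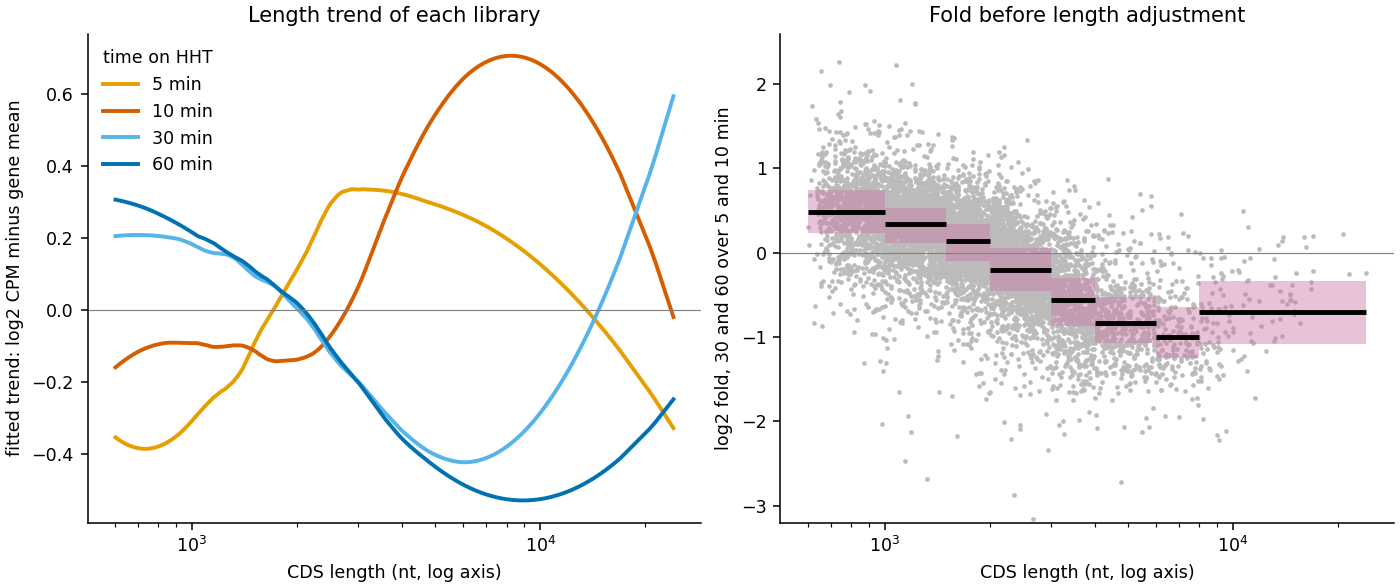
Left, fitted trend of each library (log2 CPM minus the gene mean, y axis) against CDS length in nt (log x axis), with 1 line per library. Right, log2 fold of 30 and 60 min over 5 and 10 min before length adjustment for each of 8631 genes (grey points), with the median (black) and the middle 50% (pink) of each length class: the median goes from 0.48 in the shortest class to -0.99 from 6000 nt to under 8000 nt.

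Among the genes with the most counts in their length class, Rtn1, App and Cltc show the same order. Map2, of the class from 1000 nt to under 1500 nt, does not, and is described below. Sparcl1, of the class from 1500 nt to under 2000 nt, was called lower after the length adjustment. Rtn1, a reticulon of the endoplasmic reticulum (listed CDS 627 nt), had 4838 and 2861 early counts and 5119 and 4976 late ones. App, the amyloid precursor protein (2088 nt), had 16939, 9984, 9494 and 8467. Cltc, the clathrin heavy chain (5028 nt), had 23373, 19272, 6686 and 6037, so both late counts were far below both early ones. Before the adjustment their log2 folds were 0.99, 0.01 and -1.19. After it they were 0.46 (SE 0.130, adjusted p = 0.0613), 0.03 (SE 0.0780, adjusted p = 0.897) and -0.35 (SE 0.0786, adjusted p = 0.0233). Cltc alone of the 3 passed edgeR's test, and DESeq2 and limma voom, other tests of counts, did not call it. Map1b (7395 nt) and Map1a (9045 nt), microtubule-associated proteins of neurons, went from -1.10 and -0.66 to -0.16 and 0.22, neither with a call.

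With length taken out, 170 genes were higher at 30 and 60 min (1.97% of the 8631 tested) and 228 were lower (2.64%), 4.61% together, by edgeR's quasi-likelihood test at an adjusted p under 0.05. Among them 46 were at least 2-fold higher (0.533%) and 72 at least 2-fold lower (0.834%). At an unadjusted p under 0.05, 789 genes were higher (9.14%) and 861 lower (9.98%). Of the 8631 genes, 356 had a mean of at least 10 counts only on the early side and 55 only on the late side. Of the 228 lower calls, 210 were of genes with that mean on both sides. Of the genes called in the fit without the length term, 56 of 485 higher calls and 196 of 1129 lower calls were called the same way here, and 1 gene was called in opposite directions. The rank correlation between the adjusted fold and CDS length was -0.04. Longer classes still held more calls, from 2.59% under 1000 nt to 16.5% at 8000 nt or more, and their genes had more counts as well, with a median sum over the 4 libraries of 135 in the former and 1281 in the latter.

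Differences between the sides had nearly the spread of those between neighbouring times. The SD over genes of the length-adjusted log2 difference was 0.387 for 10 against 5 min, 0.367 for 60 against 30 min and 0.394 between the means of the sides, although a mean of 2 libraries carries less counting scatter than 1 library. Genes at least 2-fold apart numbered 188, 177 and 199. Both late levels were above both early levels in 2155 genes (25.0%) and below them in 2071 (24.0%), so non-overlap alone marks far more genes than the test. The number of calls depended on which library was left out. It was 138 higher and 237 lower without 5 min, 603 and 663 without 10 min, 108 and 108 without 30 min, and 40 and 37 without 60 min. Of the called genes, 33 of 170 higher and 30 of 228 lower kept their call without each library in turn, and 55 in each direction were also called by both DESeq2 and limma voom. The sign was kept in all 4 by 170 of 170 higher genes and 221 of 228 lower ones, the other 7 having too few counts once a library was removed.

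**Figure D2:**
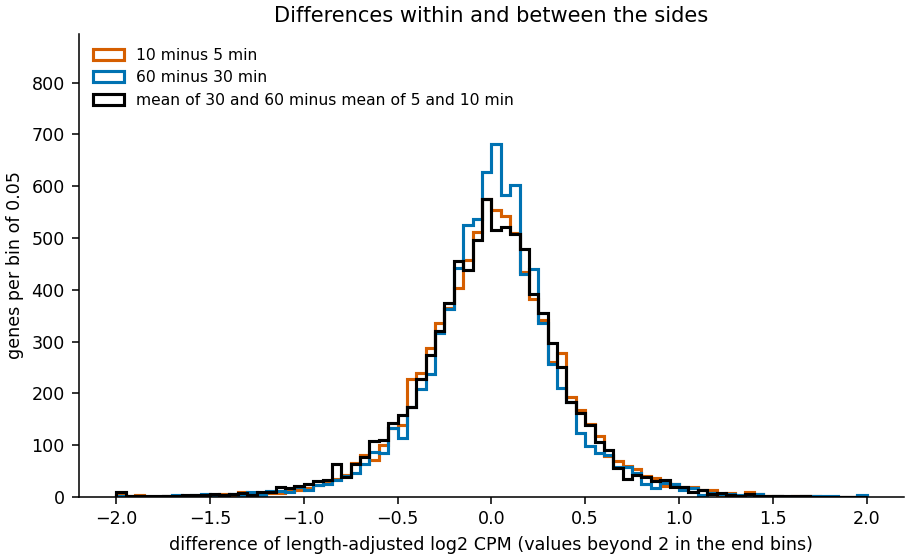
Number of genes (y axis, bins of 0.05) by difference of length-adjusted log2 CPM (x axis) for 10 minus 5 min (orange), 60 minus 30 min (blue) and the mean of 30 and 60 min minus the mean of 5 and 10 min (black), over 8631 genes. The 3 outlines overlap over most of their range, and that of 60 minus 30 min is the narrowest (SDs 0.387, 0.367 and 0.394).

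**Figure D3:**
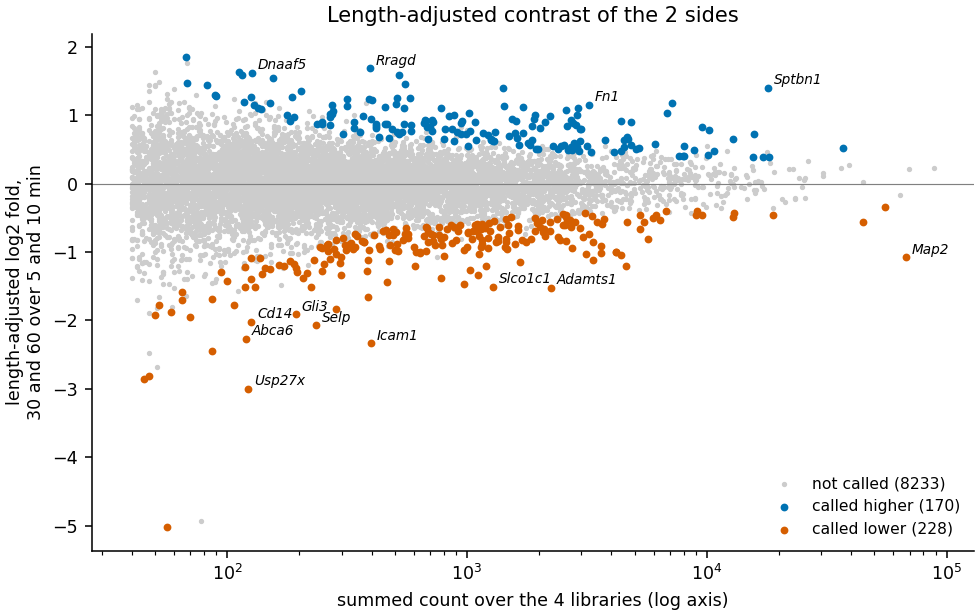
Length-adjusted log2 fold of 30 and 60 min over 5 and 10 min (y axis) against the summed count of the 4 libraries (log x axis) for 8631 genes, with 170 called higher (blue), 228 called lower (orange) and the rest grey. Icam1, Selp and Adamts1 lie well below 0, and Rragd and Sptbn1 well above it.

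The named genes with the largest falls are described first. Of these, Abca6, Usp27x, Gli3 and Ssh3 had a mean under 10 counts late and passed the filter only through the early side. Their direction therefore supports nothing by itself. Icam1, an adhesion molecule of activated endothelium and glia (chromosome 9, 21015940 to 21028814 in GRCm38), had 224 and 122 counts early, against 29 and 22 late. Its length-adjusted log2 fold was -2.33 (SE 0.224, adjusted p = 9.84e-05). Both late counts lay far below both early ones. In slices, fewer cells of a type and fewer footprints per cell cannot be told apart, which bears on every gene of 1 cell type named here. Selp, P-selectin of endothelium and platelets, had 113, 91, 21 and 9 counts and a fold of -2.07 (SE 0.321, adjusted p = 0.0027). Adamts1, a secreted metalloprotease that cuts proteoglycans, had 1219, 680, 193 and 143 counts and a fold of -1.52 (SE 0.137, adjusted p = 7.78e-05). Icam1, Selp and Adamts1 kept their call without each library in turn, as did Abca6, a lipid transporter (55, 47, 11 and 7 counts; fold -2.27), and Elmsan1 (213, 122, 28 and 22 counts; fold -1.66).

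Other large falls lost their call when a library was left out. Usp27x, a deubiquitinase gene on the X chromosome, had the lowest fold of the 12, -2.99 (SE 0.620, adjusted p = 0.015), but its counts were 93, 18, 6 and 5, and without 5 min it had too few counts to test. Tnfaip3, the inhibitor A20 of NF-kappa B signalling, had 206, 42, 18 and 19 counts and a fold of -1.84 (adjusted p = 0.0238), which was -0.86 without 5 min (adjusted p = 0.205) and -1.71 without 30 min (adjusted p = 0.0616). Cd14, a lipopolysaccharide co-receptor, had 69, 35, 15 and 7 counts and a fold of -2.02, which without 60 min was -1.64 with no call (adjusted p = 0.0769). Gli3, a transcription factor of Hedgehog signalling, had 96, 79, 12 and 6 counts, and its fold of -1.91 was -1.59 without 60 min, again with no call (adjusted p = 0.0721). Ssh3, a cofilin phosphatase, lost its call without 30 or 60 min, Zfp36l1, which marks mRNAs for decay, without 30 min, and Armcx5 without 5 or 60 min. Their folds were -1.77, -1.52 and -1.52. Without those libraries they were -1.70 and -1.85 for Ssh3, -1.32 for Zfp36l1, and -0.81 and -1.26 for Armcx5.

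The named genes with the largest rises follow. Rragd, a Rag GTPase that takes part in amino acid sensing by mTOR at the lysosome (chromosome 4, 32982998 to 33022180), rose in bare counts although the late libraries were smaller, with 45, 59, 145 and 143. Its fold was 1.68 (SE 0.221, adjusted p = 8.23e-04). Ubfd1, a ubiquitin-binding protein, had 88, 75, 164 and 223 counts and a fold of 1.45 (SE 0.205, adjusted p = 0.00142). Both genes were higher in each late library than in each early one by count alone. Bnip3l, a mitophagy receptor, had 16, 12, 29 and 55 counts and a fold of 1.63, and Stard10, a lipid transfer protein, 21, 21, 40 and 73 and 1.53. Both lost their call without 60 min (adjusted p = 0.370 and 0.325).

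Sptbn1, the main brain beta spectrin (CDS 7092 nt, chromosome 11, 30099395 to 30268384), had by far the most counts of the genes with the largest rises. They were 4891, 4362, 4560 and 4179, nearly level while the library totals fell. Its length-adjusted fold was 1.39 (SE 0.0975, adjusted p = 8.95e-06), and before the adjustment it was 0.46 (adjusted p = 0.0799), against a median of -0.99 in its length class. Obsl1, a cytoskeletal adaptor (117, 128, 129 and 144 counts), and Myo5b, a myosin of endosome transport (352, 358, 433 and 272), had folds of 1.58 and 1.40. Sptbn1, Obsl1, Myo5b, Rragd and Ubfd1 kept their call without each library in turn. Dnaaf5, Myh3, Cilp2, Adamts17 and Adamtsl3, with folds of 1.61, 1.58, 1.35, 1.27 and 1.26, each had 115 to 203 counts in all and lost their call without at least 1 library. Myh3 has close relatives among the myosin heavy chains, and reads shared between near-identical genes may have been split between them.

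**Figure D4:**
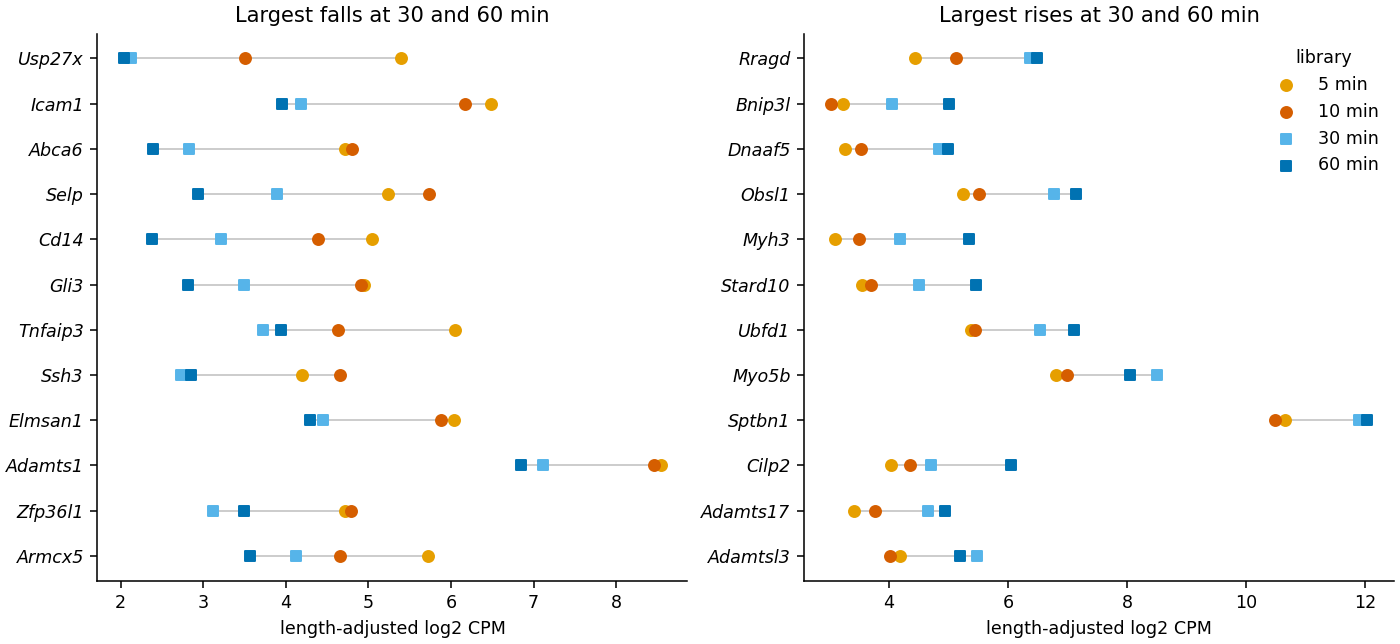
Length-adjusted log2 CPM (x axis) of each of the 4 libraries (circles 5 and 10 min, squares 30 and 60 min) for the 12 called genes with the largest falls (left) and the 12 with the largest rises (right) among those with at least 100 counts. In all 24 genes both squares lie on 1 side of both circles, which the choice of genes required.

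A rise here is relative to other mRNAs of like length. The authors' deposited signal divides each count by CDS length and by a factor per library, of an origin not given in the sources used here. With those factors the median log2 fold of all genes before length adjustment was -0.50, against 0.06 with TMM. On the deposited scale a typical mRNA thus lost signal between the sides. Whether those factors track the total amount of footprints was not tested. The mean deposited signal of the late libraries over that of the early ones had a median of 0.690 across genes. It was above 1 in 1054 of 8631 genes, in 61 of the 170 called higher and in 0 of the 228 called lower. It was 2.64 for Rragd, 2.28 for Ubfd1 and 1.07 for Obsl1, but 0.916 for Sptbn1. Length-adjusted calls were little moved by this scaling (165 higher, 260 lower). That was largely fixed in advance, since each library's length curve takes up most of any factor per library.

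Genes of inflammation held several of the largest falls. Of 27 listed genes, 13 were tested and 7 were called lower and 0 higher, against 2.64% and 1.97% of all genes tested. Of the 13, 6 had a mean under 10 counts late and passed the filter only through the early side, which fixed their direction. They are Nlrp3, Tlr2, Gpr84, Irf1, Il1a and C3ar1, and none was called. The other 7 are the called ones. The median fold of the 13 was -1.84, where that of all genes tested was 0.01, and it includes those 6 and supports nothing by itself. Besides Icam1, Cd14 and Tnfaip3 the called members were Nfkbiz (-1.31) and Nfkbia (-1.12), regulators of NF-kappa B, Ptgs2, the inducible cyclooxygenase (-0.83), and Il1rap, a subunit of the interleukin 1 receptor (-0.69). Il1rap, listed with a CDS of 1083 nt, has 4 RefSeq protein-coding transcripts. Its fold before length adjustment was -0.32, with no call. Ptgs2 had 411, 231, 158 and 99 counts, and Nfkbia 175, 97, 58 and 55. The innate receptor genes Nlrp3 (73, 4, 1 and 0 counts), Tlr2 (42, 5, 1 and 3) and Gpr84 (35, 6, 3 and 3) missed the threshold. Their adjusted p by edgeR were 0.0527, 0.0791 and 0.0674, and most of their counts came from the library at 5 min. Without it they fall below the count filter, so the list's median is then over fewer members. Without that library the list's median was -0.86 and 5 of the 7 calls were kept. Without 30 min and without 60 min 3 and 2 of the 7 were kept.

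Microglia, the brain's own macrophages, express many of these genes. Of 24 listed markers of these cells 10 had enough counts to be tested, and edgeR called 0, with 5 lower and 0 higher at an unadjusted p under 0.05. DESeq2 and limma voom called 0 as well. Of the 10, 4 passed the filter only through the early side, which fixed their direction, and 5 of the other 6 had a fold below 0. The median of all 10 was -0.80. Without 5 min it was -0.28, over the members that then passed the count filter. Csf1r, the colony-stimulating factor receptor that microglia depend on, had 491, 120, 73 and 64 counts (fold -1.07, SE 0.313, adjusted p = 0.0674), so its main drop lay between 5 and 10 min, within the early side. The summed level of the 10 markers was 459 and 229 CPM early and 179 and 205 CPM late. The part of this lower late level in the inflammation result was not tested.

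Many inflammation genes are known targets of NF-kappa B, which binds a short site in their promoters. The 250 bases before the start of transcription are shown for Nfkbia and Tnfaip3, the called members with an exact match to the NF-kappa B consensus site of 10 bases there, since both encode inhibitors that the factor itself switches on. The sequences are from RefSeq for GRCm38.p6, on the gene's strand, 5′ to 3′, with matches on either strand in capitals. The Nfkbia window is chr12:55492648-55492897 (minus strand) and that of Tnfaip3 is chr10:19015411-19015660 (minus strand).
Nfkbia: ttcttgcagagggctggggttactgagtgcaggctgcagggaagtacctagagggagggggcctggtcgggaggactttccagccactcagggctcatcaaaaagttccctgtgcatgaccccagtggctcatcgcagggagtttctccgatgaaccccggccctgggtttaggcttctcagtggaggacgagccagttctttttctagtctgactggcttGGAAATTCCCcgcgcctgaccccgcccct
Tnfaip3: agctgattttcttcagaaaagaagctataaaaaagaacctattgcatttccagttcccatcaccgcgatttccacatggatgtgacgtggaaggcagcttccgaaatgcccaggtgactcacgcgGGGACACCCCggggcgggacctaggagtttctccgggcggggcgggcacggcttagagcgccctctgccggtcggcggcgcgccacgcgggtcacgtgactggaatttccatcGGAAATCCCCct
The Nfkbia window holds 1 match and that of Tnfaip3 holds 2. A second Tnfaip3 window and those of Icam1, Ptgs2 and Il1rap hold none, which says only that these letters are not in those 250 bases. Only 5 of the 7 called members had a window to search, and Cd14 and Nfkbiz had none. Uncalled members hold matches as well: Tlr2 has 2, which overlap, and Nlrp3 and Irf1 have 1 each, in 1 of their 2 windows. In all, 5 of the 11 tested inflammation genes with a window have a match. A match in at least 1 window was found for 16 of 166 genes called lower that have a window (9.64%), for 4 of 135 called higher (2.96%) and for 403 of 6742 tested (5.98%). A match is in 3.90% of all 32851 RefSeq windows. These shares describe letters, not bound sites.

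Markers of other glia had medians below 0 too. Oligodendrocyte and myelin genes had a median fold of -0.65, with 4 of 19 tested called lower, 0 higher, and 18 below 0. Without the length term their median was -0.40. Of all genes tested 2.64% were called lower and 1.97% higher. Mag, a myelin-associated glycoprotein, had 2491, 1032, 647 and 433 counts (fold -1.20, SE 0.183, adjusted p = 0.00264). Cspg4, the NG2 proteoglycan of precursor cells, fell by 1.02, and Gpr37 by 0.64 on the log2 scale, while Bcas1 had a fold of 0.19 with no call. Without 5 min the list's median was -0.31, and all 4 calls were kept, while 2 were kept without 30 min, 2 without 60 min and 1, that of Mag, in all of these. Of the 22 astrocyte markers, all tested, 4 were called lower and 0 higher, against the same 2.64% and 1.97%. The list's median was -0.33, but -0.006 without the length term. Slco1c1, a thyroid hormone transporter (595, 446, 133 and 109 counts), had a fold of -1.50, and Slc1a3, a glutamate transporter (2465, 1513, 897 and 798), one of -0.81. Slc4a4, a bicarbonate cotransporter, and Gpc5, a glypican, were at -0.85 and -0.84. In Aqp4, the astrocyte water channel, the fold was 0.15 with no call.

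Vessel genes and matrix genes went both ways. Of 14 endothelial and mural genes tested, 1 was called higher and 1 lower. From 3000 nt to under 4000 nt, where their median length lies, 10.1% of all genes were called. Bsg, the glycoprotein basigin, had 1133, 1186, 2025 and 2450 counts (fold 1.03, SE 0.132, adjusted p = 6.98e-04), but on the scale of log2(TPM + 1) its fold was -0.03, so its direction depends on which deposited table is read. Slc2a1, the glucose transporter of the blood-brain barrier, fell by 0.81 on the log2 scale. Collagen and matrix genes had a median of 0.19, with 6 of 22 called higher and 2 lower, against 1.97% and 2.64% of all genes. From 4000 nt to under 6000 nt, where their median length lies, 11.1% of all genes were called. The members called higher were Fn1, fibronectin (854, 938, 741 and 689 counts; fold 1.14, SE 0.119), Col3a1 (1.21), Col1a1 (1.00), Col1a2 (0.89), Col6a3 (0.90), and Nid1 of basement membranes (0.77). Other collagens had no call, with folds of 0.61 for Col6a1, 0.16 for Col5a1, -0.19 for Col4a1 and -0.21 for Col4a2. The proteoglycans Vcan, versican (559, 324, 87 and 54 counts), and Bcan, brevican, fell by 1.26 and 0.56. Fn1 and the genes of collagens I and III kept their call without each library in turn, and neither proteoglycan did. Without 60 min the list's median was 0.01.

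Spectrins and their relatives were looked at as a family, which was put together after Sptbn1 and its kin were seen and so carries no test. All 16 proteins with spectrin repeats that were looked up were tested, 11 were called higher and 0 lower, against 1.97% higher and 2.64% lower of all genes and 14.9% called either way from 6000 nt to under 8000 nt. Their folds ran from 0.17 to 1.39 with a median of 0.67. Sptan1, the alpha spectrin partner, had 12706, 11593, 6415 and 6100 counts and a fold of 0.52 (SE 0.0939, adjusted p = 0.00780). Dystrophin (Dmd) was at 1.03, its relative Drp2 at 0.87, Sptbn4 of axon initial segments at 0.80, plectin (Plec) at 0.68, the nuclear envelope linker Syne1 at 0.66 and Macf1 at 0.54. Syne2, Utrn, Dst, Actn1 and Actn4 had no call. Their median CDS of 7271 nt lies where few genes support the length trend, and without 60 min 3 of the 11 calls were kept.

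The list of motor proteins and giant scaffolds, which shares members with that family, had a median of 0.12 with 8 of 34 called higher and 3 lower. Of all genes tested 1.97% were called higher and 2.64% lower. From 6000 nt to under 8000 nt, where the list's median length lies, 14.9% were called either way. Dync1h1, the dynein heavy chain (CDS 13935 nt), had 4263, 4458, 4007 and 2940 counts and a fold of 0.73 (SE 0.0927), and its activator subunit Dctn1 and the kinesin Kif5a had 0.53 and 0.40. Genes of like size went both ways, since the ubiquitin ligase gene Huwe1 (13137 nt; 3409, 3706, 1593 and 846 counts) fell by 0.46. Myo6, a myosin that moves toward minus ends of actin, fell by 0.70. Of the list's calls, 3 of 8 higher and 1 of 3 lower were also made by both DESeq2 and limma voom. Neither of these called Kif5a. Myosin heavy chains, also gathered after values were seen, had 5 of 16 called higher and 2 lower. DESeq2 and limma voom both called 2 of the 5 and 0 of the 2. From 4000 nt to under 6000 nt, where their median length lies, 11.1% of all genes were called.

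Map2, the dendritic microtubule-associated protein, was the most abundant gene called lower. Its counts were 29082, 19976, 10404 and 8312, with a fold of -1.08 (SE 0.0860, adjusted p = 2.37e-05), and the call was kept without each library. The table lists it with a CDS of 1404 nt, although longer forms of this protein are known in neurons. Its fold before length adjustment was -0.82, set beside medians of 0.34 for the class its listed CDS falls in and -0.84 for genes of 4000 nt to under 6000 nt. Abcc5, Ankrd50 and Wdr33, called lower and listed with 627, 831 and 939 nt, are likewise genes with more than 1 RefSeq protein-coding transcript. Whether the listed transcript is the one translated in these slices was not tested. Of the 8631 genes 4203 have 1 such transcript, and fitted on their own these gave 81 higher and 113 lower.

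Of 45 postsynaptic genes tested 10 were called higher and 1 lower, against 1.97% and 2.64% of all genes tested. From 2000 nt to under 3000 nt, where the list's median length lies, 4.62% were called either way. The list's median fold was 0.22. Shank3, a scaffold of excitatory synapses, had 544, 543, 420 and 405 counts and a fold of 1.01 (SE 0.130, adjusted p = 7.51e-04), while its relative Shank1 had 0.47. Kalrn, an exchange factor for small GTPases in spines, had 3049, 2677, 1891 and 1954 counts and a fold of 0.82. The NMDA receptor subunit genes Grin2c and Grin2d had 1.26 and 0.89, against -0.08 with no call for Grin1, the obligatory subunit. The scaffold partners Dlgap1 and Dlgap4 had 0.92 and 0.84, Begain 0.92, Iqsec2 0.66 and Sorbs2 0.50. Grm3, a glutamate receptor that glia also carry, fell by 0.45. Camk2a, the most abundant member, had a fold of 0.21 with no call, and 4 of the 10 higher calls were kept without 60 min.

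Commonly cited FMRP targets split nearly evenly. Of 95 tested, 13 were called higher and 10 lower, against 1.97% and 2.64% of all genes and 11.1% called either way from 4000 nt to under 6000 nt, where the list's median length lies. The median fold was 0.06, and -0.0032 without 5 min. Those called include Shank3, Sptbn1 and Dync1h1 on the high side, together with Jph3, a junctophilin (354, 362, 424 and 465 counts; fold 0.92), Cacna1a, a presynaptic calcium channel subunit (0.62), and Agap2 (0.57). On the low side were Trrap, a scaffold of histone acetyltransferase complexes (1662, 1772, 425 and 301 counts), which fell by 1.00 on the log2 scale (SE 0.111, adjusted p = 2.99e-04), Mtor, the growth-control kinase (-0.65), and Usp9x, a deubiquitinase (-0.49). Before length adjustment the median of this list was -0.56, and its genes have long coding sequences (median 5325 nt). Of its calls, 5 of 13 higher and 3 of 10 lower were kept without 60 min.

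Chromatin modifiers, which the list of FMRP targets overlaps, had 5 of 64 called higher and 8 lower, against 1.97% and 2.64% of all genes tested. From 4000 nt to under 6000 nt, where the list's median length lies, 11.1% were called either way. The list's median fold was -0.10 after length adjustment and -0.78 before it. Brd2, a reader of acetylated histones, had 475, 267, 148 and 114 counts and fell by 0.72 (SE 0.151, adjusted p = 0.0156). The demethylase genes Kdm6b and Kdm4a, the methyltransferase gene Ehmt2 and the remodeller genes Smarca4 and Chd4 fell by 0.75, 0.61, 0.63, 0.56 and 0.46. Opposite to these were Tet3, a DNA demethylase (171, 150, 114 and 110 counts; fold 0.87), Kmt2b (0.85), Kmt2a (0.73), Kdm5a (0.72) and Ash1l (0.54). Of the lower calls 2, among them Trrap, were kept without each library in turn, and of the higher calls 0.

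Of 58 splicing factors and other RNA-binding proteins tested, 8 were called lower and 2 higher, against 2.64% and 1.97% of all genes tested. The median was -0.17, but -0.01 without 5 min, and 3 of the 8 lower calls were kept without 60 min. Among subunits of the SF3B complex of the spliceosome, Sf3b2 had 2152, 1146, 473 and 414 counts (fold -0.99, SE 0.112, adjusted p = 3.07e-04), Sf3b1 a fold of -0.54 and Sf3b3 one of -0.50. Srrm4, the neuronal microexon regulator, and Srrm1 fell by 1.12 and 0.85, and Rbm25 by 0.84. Rbfox2 and Celf2, regulators of splicing, rose, with folds of 0.72 and 0.65. Both lost their call without 60 min.

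Of 25 immediate early genes tested 3 were called lower and 1 higher, against 2.64% and 1.97% of all genes tested. The list's median fold was -0.21, but -0.01 without 5 min and 0.05 without the length term. Fos had 646, 344, 249 and 196 counts (fold -0.92), Cyr61, a secreted matricellular factor, 272, 174, 120 and 72 (fell by 1.00), and the clock gene Per1 1178, 789, 239 and 232 (-0.82). Jund had 271, 323, 409 and 490 and a fold of 0.70, and Egr1, with 1364, 936, 1019 and 1032 counts, one of 0.24 with no call. In the mTOR pathway list 2 of 26 tested were called higher and 2 lower, against 1.97% and 2.64% of all genes tested. The list's median fold was -0.04. Rragd and Tsc1 (0.68) were higher, and Mtor and Irs2, an insulin receptor substrate (1581, 1368, 351 and 316 counts, fold -0.91), were lower. DESeq2 and limma voom both called Rragd and Irs2, only DESeq2 called Mtor, and neither called Tsc1.

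Few genes of translation and metabolism were called, as was so for all genes tested (4.61% either way). The count was 0 among 16 cytosolic ribosomal proteins, 20 respiratory chain genes, 31 lysosomal proteins, 19 cytosolic chaperones, 17 endoplasmic reticulum chaperones, 14 stress response genes and 15 neuropeptides, whose medians ran from -0.11 to 0.17. The lists' median lengths lie in classes under 2000 nt, where calls were rarer. From 1500 nt to under 2000 nt, 6 of 1651 genes were called higher and 37 lower, and 2.06% were called from 1000 nt to under 1500 nt. A count of 0 in a list of 14 to 31 genes therefore does not set that list apart. Of these 132 genes, 13 were higher and 7 lower at an unadjusted p under 0.05, against 9.14% and 9.98% of all genes tested. DESeq2 and limma voom called 0 of the 132. Hspa8, the constitutive heat shock cognate, had 12636, 8671, 9553 and 8374 counts (fold 0.28, adjusted p = 0.0819). Single calls came from Eef2, the elongation factor that moves the ribosome along (0.41), Eprs (-0.48), Psmc2 of the proteasome (0.62), Aldoa of glycolysis (0.39) and Actg1 (0.39), and all but Psmc2 lost their call without 5 min. None of these 5 kept its call without 60 min. Actg1 and Actb, at 0.20 with no call, are nearly identical in sequence, so their counts may be shared. Among lists of neuronal genes, 1 of 38 voltage-gated channels was called higher, and synaptic vesicle genes had Unc13a higher (0.50) and Rims1 lower (-0.88) among 28 tested.

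**Figure D5:**
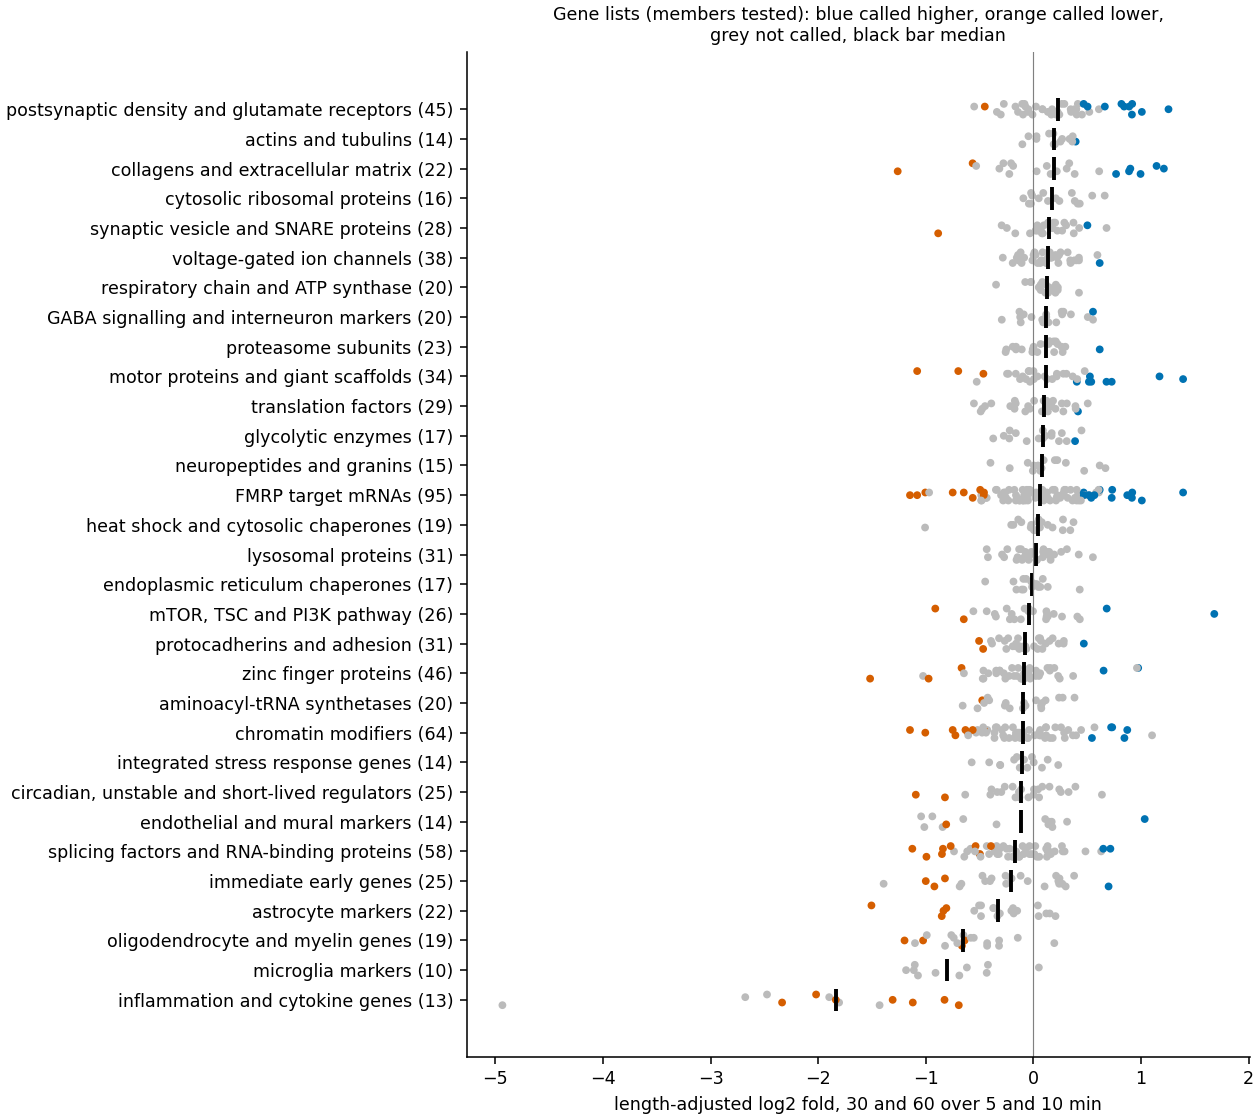
Length-adjusted log2 fold of 30 and 60 min over 5 and 10 min (x axis) for each tested member of 31 gene lists (y axis, number tested in brackets), with members called higher in blue, lower in orange and the median as a black bar. Inflammation, microglia and oligodendrocyte lists have the lowest medians (-1.84, -0.80 and -0.65), and the postsynaptic list the highest of those plotted (0.22). Low members of the first 2 include genes counted almost only early.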

How the data were processed

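The authors deposited expected counts of footprints per gene, listed as whole numbers, on coding sequences without their ends by the name of the table. They also deposited a signal (count per kilobase of CDS less 600 nt, over a factor per library) and a score, TPM rounded to whole numbers. The submitters' processing notes name mm10, TopHat2 2.0.9, Bowtie2 2.1.0, SAMtools 0.0.19, Trimmomatic 0.32 and cutadapt 1.7.1, with roles and multi-mapping rules not given in the sources used here.

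Counts of 30 and 60 min were tested against 5 and 10 min with edgeR 4.0.16 (quasi-likelihood, TMM, mean count of at least 10, R 4.3.3), with an offset per gene and library from a loess curve (span 0.3) of log2 CPM, centred per gene, on log2 CDS length. A gene is called at a Benjamini-Hochberg adjusted p under 0.05 over all 8631 genes. SEs are the log2 fold over the root of the F statistic. P-values measure the spread between these 4 pools. The procedure was tested on simulated data. Named genes are the 12 largest called folds in each direction with at least 100 counts and no overlap of the sides, the 3 largest each way without the length term, the most abundant gene of each length class, and the extremes and most abundant members of each list. Other list members named are those called, or were chosen after their values were seen. The members and the lists were chosen with earlier results of these data known. Alternatives were other scalings, filters and length curves, DESeq2 1.42.0, limma 3.58.1, the TPM table and leaving out each library. List medians without a library are over the members that then passed the count filter. Of 10329 transcripts 10293 matched GRCm38.p6, the assembly behind mm10. Some genes of these lists are counted in them but not reported here by name.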

Additional observations from a re-analysis of the deposited data

How the results depend on the processing

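Counts of length-adjusted calls stayed within 1.5 times of the values given under either count filter and all 4 other length curves. The same held under DESeq2 size factors, the deposited factors and upper quartile scaling. That was largely fixed in advance, since each library's length curve takes up most of any factor per library. Calls numbered 109 higher and 112 lower by DESeq2's Wald test, 63 and 72 by limma voom, and 0 and 0 by limma on log2(TPM + 1). On that last scale 563 and 624 had an unadjusted p under 0.05. Genes under 1500 nt fitted on their own gave 16 and 22, where the full fit has 32 and 45. Those of 4000 nt or more gave 155 and 143, where it has 62 and 45. Genes with 1 RefSeq transcript, an alternative chosen after seeing the data, gave 81 and 113. Without 1 library the counts ran from 40 to 603 higher and 37 to 663 lower, a side of 1 library being assumed to vary like the other. Without the length term they were 20 and 2727 with deposited factors, 776 higher with upper quartile scaling, 311 higher with a mean of at least 50 counts, 175 higher with DESeq2, 0 and 0 on log2(TPM + 1) (487 and 1409 at an unadjusted p under 0.05), and 18 to 1427 higher and 171 to 1996 lower without 1 library. The rank correlation with CDS length was -0.786 at a mean of at least 50 counts, and -0.686 to -0.585 without 1 library. On log2(TPM + 1) 2 named genes turned sign, Bsg (-0.028) and Sparcl1 (0.0030). The cause of these shifts was not tested. No paired analysis was possible because each time has 1 library and the times share no pool. Counts at 60 min, a median of 38 per gene, limit small changes.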

Other observations

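The TPM table holds 8198 genes that the count table does not, and 407 of them had a mean of at least 20 TPM over the 4 libraries. They were looked at and given no test, because TPM keeps no depth. Of these, 59 were listed at 0 in at least 1 library. Among the other 348 the median ratio of late to early TPM was 1.15, and the sides did not overlap in 38 genes with a ratio of 2 or more and in 26 with one of 0.5 or less. The 3 highest ratios were those of Rnf8 (16, 2, 250 and 122 TPM in time order), Mipep (27, 14, 310 and 111) and Ttc9 (13, 15, 119 and 92). The 3 lowest were those of Cinp (272, 1005, 3 and 66), Map4 (959, 534, 216 and 165) and Erbin (39, 32, 11 and 8). These 6 were picked by their values. No CDS length is listed for these genes, so length was not taken out.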
